A study of Mus musculus with 6 samples.

Results

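The CXC chemokines are small secreted proteins that guide leukocytes, and 10 of their genes (Cxcl1, Cxcl2, Cxcl3, Cxcl5, Cxcl9, Cxcl10, Cxcl11, Cxcl13, Cxcl14 and Cxcl16) were followed in macrophages that carry a mutant glucocorticoid receptor. They were taken by gene symbol from the authors' deposited table, and all 10 were found among its 23235 genes, each in a row of its own and each among the 11755 genes that had a test. The genes were chosen from the family with their values in the 2 groups of this same comparison in view. Levels, changes and calls below therefore describe these genes and were not used to test anything about the family.

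The macrophages were primary cells differentiated from mouse bone marrow with medium conditioned by L-929 fibroblasts, and they were kept in serum-free medium for the experiment. All mice were homozygous for GRdim, a form of the receptor whose dimerization is impaired. One group of 3 samples received lipopolysaccharide (LPS), a bacterial cell wall component, for 6 h, and the other group of 3 samples received 1 µM dexamethasone (Dex), a synthetic glucocorticoid, overnight before the same LPS treatment. The comparison thus shows the difference made by Dex in LPS-treated cells with the mutant receptor. Cells with the normal receptor and unstimulated cells were not analysed here. The labels state neither strain nor age of the mice, nor whether replicates stem from different animals or cultures. The deposited p-values thus reflect at most the spread between these samples, which may be technical. Whether and how the deposited test used that spread is not stated.

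Levels are in FPKM, fragments counted per length of transcript and per size of the library, so that they can be set side by side between genes. Levels, log2 changes and q values were copied from the authors' deposited table. It holds 1 value per gene and group and none per sample. The spread between replicates therefore cannot be shown. In its place an implied standard error (SE) is given for each log2 change, which is the change divided by the deposited test statistic. Sequencing depth is unknown. In bulk RNA, fewer cells of a type and less RNA per cell cannot be told apart.

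Chemokines of this family carry 2 cysteines separated by 1 residue near the start of the mature protein. In Cxcl1, Cxcl2, Cxcl3 and Cxcl5 the tripeptide ELR (glutamate, leucine, arginine) stands just before the first of these cysteines; such ELR chemokines act on the receptor Cxcr2 and recruit neutrophils. Cxcl9, Cxcl10 and Cxcl11 lack it, are induced by interferons, and draw activated T cells and natural killer cells through Cxcr3. Cxcl13 attracts B cells through Cxcr5, and Cxcl16 is made as a membrane-anchored ligand of Cxcr6 that is released by proteolysis. Cxcl14 is a chemokine of epithelial and other tissues with a less settled receptor. LPS induces several of these genes in macrophages through NF-kB and through interferon beta.

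The coding bases that separate the classes are shown for members of each, as 18 bases that end with the second cysteine codon. They were read from the GENCODE M21 transcripts, and capitals mark the codons of ELR, where present, and of the 2 cysteines.
Cxcl1: GAGCTGCGCTGTcagTGC
Cxcl2: GAACTGCGCTGTcaaTGC
Cxcl3: GAGCTGCGCTGTcagTGC
Cxcl9: aatgcacgaTGCtccTGC
Cxcl10: acggtccgcTGCaacTGC
Cxcl13: aacttaaaaTGTaggTGT
The ELR codons stand in Cxcl1, Cxcl2 and Cxcl3 and not in the other genes shown. Over all 10 members a search of the translated transcripts found ELR directly before the cysteines in 4 and not in 6.

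With Dex, the members divided within the ELR class and not along it. Cxcl1 and Cxcl2 were higher in LPS+Dex by about 1.5-fold, whereas their neighbours Cxcl3 and Cxcl5 were lower, Cxcl3 by 3.09-fold. The interferon-inducible Cxcl9, Cxcl10 and Cxcl11 were all lower, by 1.46-fold to 1.76-fold. Cxcl13 was 40.8-fold higher but from a level close to the lowest that was tested, and Cxcl14 and Cxcl16 were lower. In the authors' deposited table, 3 of the 10 members were called higher and 7 lower at q under 0.05, where 17.7% of all tested genes were called higher, 25.2% lower and 42.9% in either direction. Because the members were picked with this comparison in view, nothing is read from these shares. The median log2 change was −0.60 over the members and −0.011 over all genes tested.

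The levels spanned over 4 orders of magnitude. In LPS cells Cxcl10 stood at 3077 FPKM, the 4th highest value among all genes tested, while Cxcl13 stood at 0.156 FPKM. This rank leaves out 30 genes without a test whose status marks excess signal, Ccl5 among them, so it is not a rank among all transcripts. The order from the highest level was Cxcl10, Cxcl2, Cxcl1, Cxcl11, Cxcl16, Cxcl3, Cxcl9, Cxcl14, Cxcl5 and Cxcl13. In LPS+Dex cells the order was the same except that Cxcl13 and Cxcl5 changed places. Without values per sample it cannot be said which neighbours in this order differ beyond their spread.

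**Figure D1:**
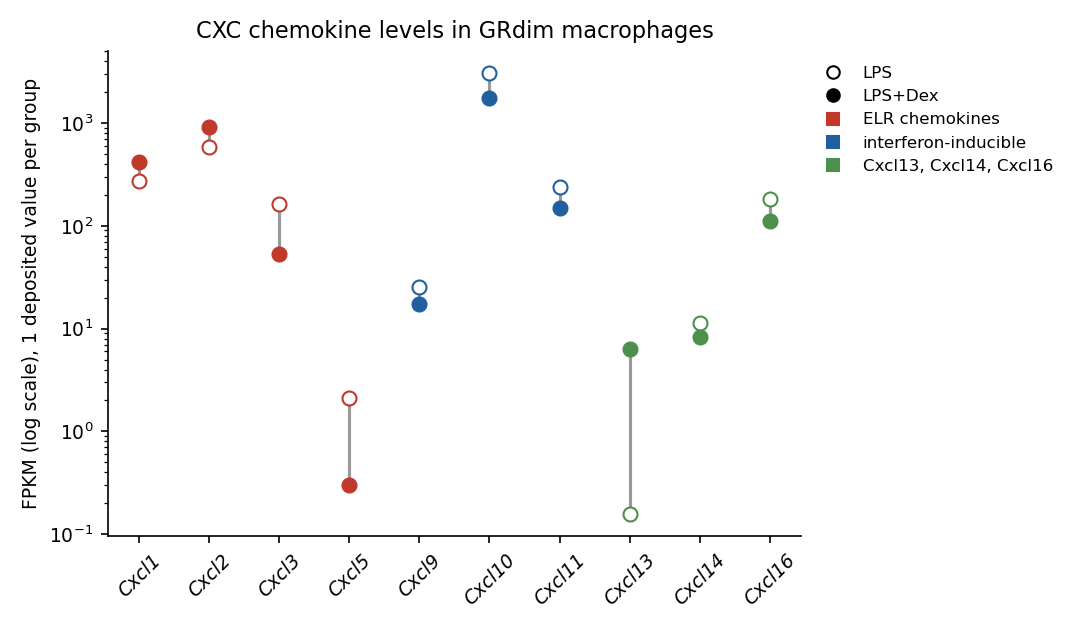
FPKM of each CXC chemokine gene (log scale) in LPS cells (open circles) and LPS+Dex cells (filled circles), 1 deposited value per group and no error available; colours mark the ELR genes, the interferon-inducible genes and the remaining members. Cxcl10 is the most abundant member in both groups at 3077 and 1747 FPKM, and the longest line joins the 0.156 and 6.38 FPKM of Cxcl13.

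Summed over the 10 members, the level was 4559 FPKM in LPS cells and 3421 FPKM in LPS+Dex cells in the authors' deposited table. The drop in Cxcl10 alone was larger than that of the sum, and Cxcl10 made up 67.5% of the sum in LPS cells and 51.1% in LPS+Dex cells. The 4 ELR genes together went from 1026 to 1383 FPKM, or from 22.5% to 40.4% of the sum. The 3 interferon-inducible genes went from 3339 to 1914 FPKM, or from 73.2% to 55.9%. Measured in FPKM, neutrophil attractants thus took a larger share of the sum in LPS+Dex cells, and T cell attractants a smaller one.

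Among the ELR genes, Cxcl1 encodes the neutrophil attractant KC. It stood at 275 FPKM in LPS and 419 FPKM in LPS+Dex cells (log2 change 0.61, implied SE 0.051). Cxcl2, its close paralog and a chief neutrophil attractant of activated macrophages, stood at 585 and 910.4 FPKM (log2 change 0.64, implied SE 0.060). Both were above their LPS level by nearly the same factor, and the ratio of Cxcl2 to Cxcl1 was 2.13 in LPS and 2.17 in LPS+Dex cells. The difference of the log2 changes of Cxcl2 and Cxcl1, 0.032, was smaller than its implied SE of 0.079, taken as if the errors of the genes were independent.

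Cxcl3, a further ligand of Cxcr2, stood at 164 FPKM in LPS and 53.0 FPKM in LPS+Dex cells in the authors' deposited table (log2 change −1.63, implied SE 0.049). Of the tested genes with both values above 0, 87 had a larger fall. The level of Cxcl3 was lower by 67.7% in LPS+Dex cells. The ratio of Cxcl2 to Cxcl3 was 3.56 in LPS and 17.2 in LPS+Dex cells. A ratio of 2 genes within a group does not depend on how the libraries were scaled to each other, so this change of balance stands apart from the scaling. Cxcl5, which encodes the attractant LIX and is best known from epithelial and stromal cells, was scarce at 2.11 FPKM in LPS and 0.299 FPKM in LPS+Dex cells (log2 change −2.82, implied SE 0.23). Only 10 tested genes with both values above 0 had a larger fall, but on the log2(FPKM + 1) scale, which tempers scarce genes, the change of Cxcl5 was −1.26.

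The coding bases of Cxcl2 and Cxcl3 are alike. Aligned coding sequence was 89.8% identical between Cxcl2 and Cxcl3, 78.7% between Cxcl1 and Cxcl2 and 75.6% between Cxcl1 and Cxcl3. Positions with a gap were left out, which raises the identity of unlike genes. Cxcl14 and Cxcl16 reached 80.4% and Cxcl1 and Cxcl16 77.3%. The values of Cxcl1 with Cxcl2 and Cxcl3 thus do not set these pairs apart from pairs of other classes. The Cxcl2 and Cxcl3 transcripts share an identical run of 110 bases, longer than the 101-base reads. Of 916 windows of 101 bases in the Cxcl3 transcript, 10 were also in Cxcl2, so a small part of the reads could have come from either gene, and the split of such reads between them is uncertain. No window of that length in Cxcl1 was found in Cxcl2 or Cxcl3.

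The promoters of Cxcl1, Cxcl2 and Cxcl3 are shown because these neighbours differed in direction. They run from 250 bases before to 50 bases after the RefSeq start, in build GRCm38.p6 (the deposited table uses mm9 and its positions are not mixed with these). Capitals mark matches on either strand to GGGNNTTCC or GGGNNTTTC, forms of the NF-kB site, or to GAAANNGAA, the core of the interferon-stimulated response element. No match overlapped another in the promoters shown.
Cxcl1 (chr5:90890995-90891294, plus strand): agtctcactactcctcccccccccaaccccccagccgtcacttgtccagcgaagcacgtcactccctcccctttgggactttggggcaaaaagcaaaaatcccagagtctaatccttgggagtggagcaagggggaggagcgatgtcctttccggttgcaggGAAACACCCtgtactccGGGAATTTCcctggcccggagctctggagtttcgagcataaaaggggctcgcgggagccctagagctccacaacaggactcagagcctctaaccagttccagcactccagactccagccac
Cxcl2 (chr5:90903649-90903948, plus strand): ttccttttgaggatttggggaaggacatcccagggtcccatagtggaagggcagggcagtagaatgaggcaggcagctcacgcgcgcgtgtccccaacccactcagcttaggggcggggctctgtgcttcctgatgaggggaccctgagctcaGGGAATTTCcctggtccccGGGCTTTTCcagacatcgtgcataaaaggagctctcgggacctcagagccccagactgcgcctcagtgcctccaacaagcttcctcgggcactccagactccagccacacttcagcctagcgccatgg
Cxcl3 (chr5:90785851-90786150, plus strand): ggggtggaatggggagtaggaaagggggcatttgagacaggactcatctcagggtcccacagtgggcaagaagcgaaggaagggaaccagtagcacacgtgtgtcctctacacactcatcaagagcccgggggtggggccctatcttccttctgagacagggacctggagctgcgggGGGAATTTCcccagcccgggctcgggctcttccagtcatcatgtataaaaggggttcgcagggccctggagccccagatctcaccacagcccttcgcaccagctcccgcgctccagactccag
All 3 held the run GGGAATTTC on the plus strand, beginning 71 bases before the start in Cxcl1, 97 in Cxcl2 and 73 in Cxcl3. Cxcl1 and Cxcl2 each held 2 NF-kB matches and Cxcl3 held 1. Of 32851 RefSeq promoters of the same length, 9.53% held a match to either form. The genes with higher and with lower levels in LPS+Dex cells thus shared this run, and the letters by themselves say nothing of which factor was bound.

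The most abundant member, Cxcl10, encodes an interferon-induced attractant of T cells. It stood at 3077 FPKM in LPS and 1747 FPKM in LPS+Dex cells (log2 change −0.82, implied SE 0.084) in the authors' deposited table. Cxcl9, which encodes an attractant best known as a target of interferon gamma, stood at 25.2 and 17.3 FPKM (log2 change −0.54, implied SE 0.050). Cxcl11 stood at 237 and 149 FPKM (log2 change −0.66, implied SE 0.19). All 3 genes were lower in LPS+Dex cells, by 43.2% for Cxcl10, 36.9% for Cxcl11 and 31.3% for Cxcl9. The ratio of Cxcl10 to Cxcl9 was 122 in LPS and 100.9 in LPS+Dex cells, and the log2 changes of these genes differed by −0.27 with an implied SE of 0.098. After removal of the expression trend, Cxcl10 and Cxcl9 had log2 changes that were closer, at −0.63 and −0.50. Those of Cxcl10 and Cxcl11 differed by −0.15, less than the implied SE of 0.21.

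The value of Cxcl11 was the least precise of the abundant members. Among 731 tested genes with a geometric mean of 100 to 1000 FPKM the median implied SE was 0.0514, and 2 genes, Cxcl11 included, had one at least as large as that of Cxcl11. Its deposited q was 0.00162, whereas 8 members have a q listed as 0 and Cxcl14 one of 2.52e-12. Cxcl10, Cxcl11 and Art3, a gene of the ADP-ribosyltransferase family, are listed with 1 joint locus of 82.8 kb. Art3 was at 0.187 and 0.164 FPKM with an implied SE of 7.55. The libraries were prepared by a stranded protocol, but the labels do not say whether the counting used strand, so the division of reads among overlapping genes is uncertain. The Cxcl11 transcript read for the ELR search is typed as protein-coding in GENCODE M21, with an open frame of 99 residues. Whether the gene is intact in these mice, whose strain is not stated, was not tested.

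The promoter of Cxcl10 is shown as that of the most abundant member, marked in the same way.
Cxcl10 (chr5:92348840-92349139, minus strand): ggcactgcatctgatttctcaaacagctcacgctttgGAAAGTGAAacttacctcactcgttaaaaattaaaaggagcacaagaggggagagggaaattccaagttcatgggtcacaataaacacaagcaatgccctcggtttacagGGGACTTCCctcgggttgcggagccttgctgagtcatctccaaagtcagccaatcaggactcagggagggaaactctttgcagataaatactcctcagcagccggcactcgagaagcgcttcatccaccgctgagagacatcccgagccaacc
It held 1 match to GAAANNGAA, beginning 213 bases before the start, and 1 to GGGNNTTCC, beginning 103 bases before it. Only NF-kB forms of 9 letters were searched. Longer forms, such as the run gggaaattcc in this promoter, were neither marked nor counted. Cxcl9 also held the response element core, 175 bases before the start, and 3 NF-kB matches. The core was in 8.56% of RefSeq promoters and in 3 of the 7 members with a promoter in the table, the third being Cxcl14. The half-site AGAACA of the glucocorticoid response element, searched on both strands, was in Cxcl9 and Cxcl14 and in 19% of all promoters. In Cxcl14 it overlapped the single match among the members to TTCNNNGAA, the gamma-activated site, a motif in 8.3% of promoters. TGACTCA, the AP-1 site, was in Cxcl9 and Cxcl10 and in 5.2% of promoters. TATAAA, the letters of the TATA box, was in Cxcl3, Cxcl9 and Cxcl13 and in 13.6%. It began 30 bases before the start in Cxcl3, 46 in Cxcl13 and 195 in Cxcl9, so the letters alone do not make a TATA box. Cxcl1 and Cxcl2 hold cataaa, which differs by 1 letter and was not searched for. Promoters of Cxcl5, Cxcl11 and Cxcl16 were not analysed here.

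Cxcl13, the B cell attractant of lymphoid follicles, was almost silent in LPS cells at 0.156 FPKM and stood at 6.38 FPKM in LPS+Dex cells in the authors' deposited table (log2 change 5.35, implied SE 0.39). Only 2 tested genes with both values above 0 had a larger rise. The LPS value lies near the level below which no test was made, since genes without a test for low signal reached 0.110 FPKM. On the log2(FPKM + 1) scale the change was 2.67, and with a pseudocount of 0.1 it was 4.66. The size of the ratio thus rests on a scarce value, while its LPS+Dex level came next after that of Cxcl14. Cxcl13 made up 0.186% of the summed FPKM of the 10 members in LPS+Dex cells. Its promoter held no match to the NF-kB or interferon motifs in this window, and capitals are therefore absent.
Cxcl13 (chr5:95956689-95956988, plus strand): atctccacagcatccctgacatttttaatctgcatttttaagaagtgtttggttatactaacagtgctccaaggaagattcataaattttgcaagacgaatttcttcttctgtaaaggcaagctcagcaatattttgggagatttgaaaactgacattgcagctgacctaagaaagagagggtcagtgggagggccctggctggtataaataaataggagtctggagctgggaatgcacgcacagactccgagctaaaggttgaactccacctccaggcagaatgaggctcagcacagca

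Cxcl14 and Cxcl16 were lower in LPS+Dex cells by less than 2-fold. Cxcl16, which also serves as a scavenger receptor for oxidized lipoprotein on macrophages, stood at 182 and 110.2 FPKM (log2 change −0.73, implied SE 0.051) in the authors' deposited table. It shares its listed locus with Zmynd15, which stood at 6.88 and 4.80 FPKM (log2 change −0.52, q = 0.0603) and was not called. Cxcl14 stood at 11.4 and 8.25 FPKM (log2 change −0.47, implied SE 0.064), the smallest absolute change among the members.

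**Figure D2:**
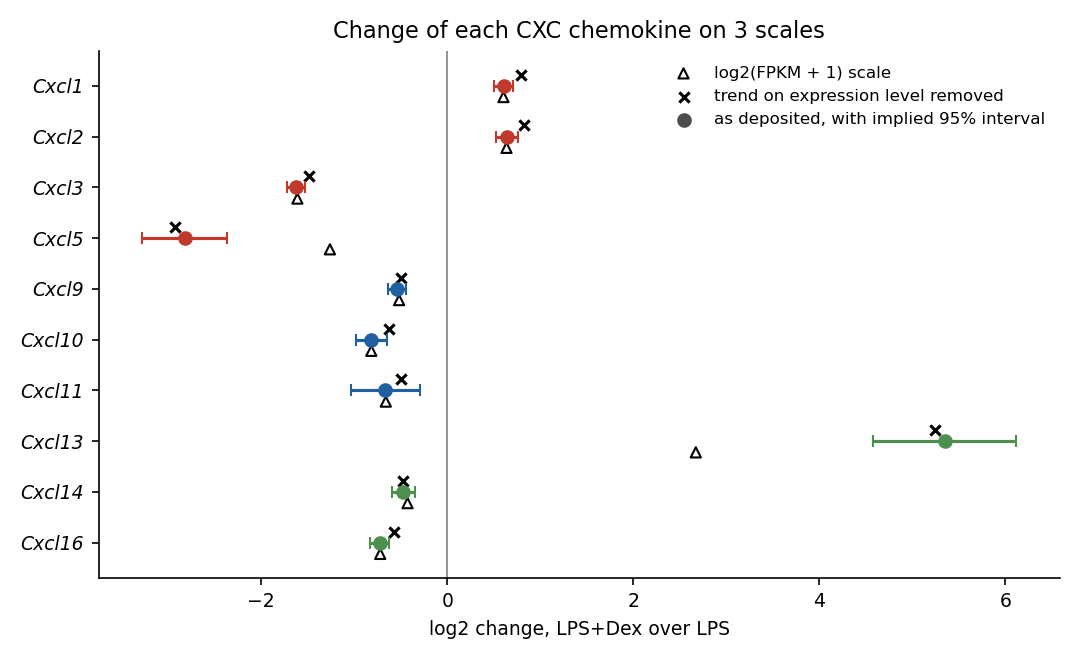
log2 change of each CXC chemokine gene, LPS+Dex over LPS: circles give the deposited value with a 95% interval from the implied SE, triangles the change on the log2(FPKM + 1) scale, and crosses the change after the trend on expression level was removed. Each gene keeps its sign on all 3 scales, and only Cxcl5 and Cxcl13 move far, to −1.26 and 2.67 on the log2(FPKM + 1) scale.

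Abundant genes of all kinds tended to be lower in LPS+Dex cells. Among the 731 tested genes with a geometric mean of 100 to 1000 FPKM, the median log2 change was −0.18 and 138 had a change above 0. To remove this trend, each gene was set against a window of 500 tested genes by level. At the upper end these are the 500 most abundant, with a median of −0.19. Against them the log2 changes became 0.80 for Cxcl1, 0.83 for Cxcl2 and −0.63 for Cxcl10. Cxcl1 and Cxcl2 thus lay on the less common side for their level, with 690 and 640 tested genes of any level showing a larger rise.

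**Figure D3:**
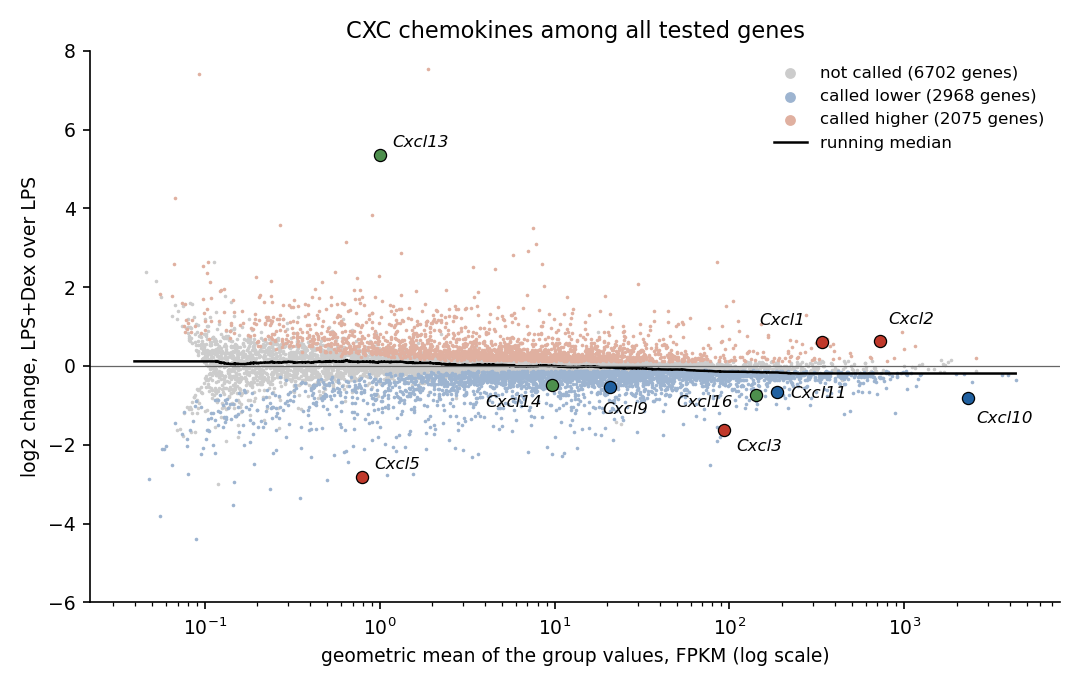
log2 change, LPS+Dex over LPS, against the geometric mean of the group values in FPKM (log scale) for tested genes with both values above 0; small points are coloured by the deposited call, the line is the running median over 500 genes, large points are the CXC chemokines, and 1 gene lies outside the plotted range. Cxcl1 and Cxcl2 lie above the line at the abundant end, Cxcl10 below it, and Cxcl13 far above the bulk of genes near 1 FPKM.

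The ELR genes lie in 1 cluster, with the genes called lower at an end and those called higher at the other. On chromosome 5 (mm9, starts counted from 1) the table places Cxcl5 at 91188325 to 91190651, Cxcl3 at 91215129 to 91217116, Cxcl1 at 91320271 to 91322141 and Cxcl2 at 91332925 to 91334964. The starts of the lower pair, Cxcl5 and Cxcl3, are 26.8 kb apart, and the higher pair, Cxcl1 and Cxcl2, starts 131.9 and 144.6 kb from the start of Cxcl5. Between Cxcl5 and Cxcl3 lie 2 more CXC ligand genes. Ppbp, the platelet basic protein gene, was scarce at 0.154 and 0.118 FPKM (q = 0.651). Pf4, which encodes platelet factor 4 and is also expressed by macrophages, stood at 64.5 and 72.2 FPKM (log2 change 0.16, implied SE 0.057) and was called higher with q = 0.0106. A gene called higher thus lies between the members called lower. Cxcl15 was listed at 0 and 0.00169 FPKM, and Mthfd2l, a mitochondrial folate enzyme gene beyond Cxcl2, was called higher at 2.26 and 2.88 FPKM (log2 change 0.35, implied SE 0.095).

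Cxcl9 lies at 92750357 to 92757105, and the joint locus of Cxcl10 and Cxcl11 at 92760867 to 92843653. Of the 5 other genes with a start within 100 kb, 4 were tested, and 2 of these were called lower and none higher. Over all tested genes 25.2% were called lower and 17.7% higher, and nothing is read from so few neighbours. The called neighbours changed less than the chemokines. Naaa, which encodes a lysosomal amidase, had a log2 change of −0.32 and Sdad1 one of −0.17. Nup54, a nuclear pore gene, was not called (log2 change −0.054, q = 0.502). Cxcl13 lies apart at 96385958 to 96390087 with no other gene of the table starting within 100 kb, Cxcl14 lies on chromosome 13 (56390006 to 56397912) and Cxcl16 on chromosome 11 (70267736 to 70279701).

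**Figure D4:**
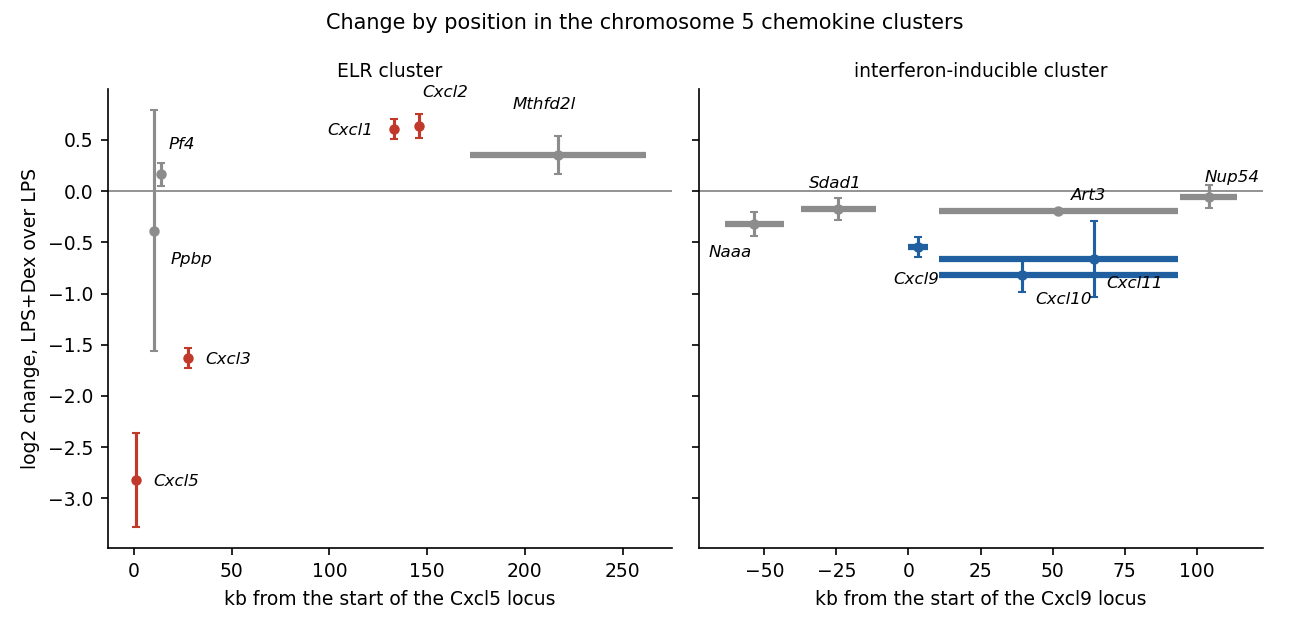
log2 change, LPS+Dex over LPS, against distance in kb from the start of the Cxcl5 locus (left) and of the Cxcl9 locus (right) for tested genes of the 2 chromosome 5 clusters; horizontal bars are the listed loci, points with error bars the change with its 95% interval from the implied SE, coloured for members and grey for other genes. Cxcl10 and Cxcl11 share 1 locus and their points are set apart within it; Art3 is drawn without its error bar, whose SE is 7.55.

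The receptors of these ligands were scarce in the macrophages. Of 8 CXC receptor genes in the authors' deposited table, 3 were tested. Of these 1 was called higher and none lower, where 17.7% and 25.2% of all tested genes were. Cxcr4, the receptor of Cxcl12, stood at 1.83 and 3.10 FPKM (log2 change 0.76, implied SE 0.11). Cxcr3, the receptor of Cxcl9, Cxcl10 and Cxcl11, stood at 0.572 and 0.394 FPKM (log2 change −0.54, q = 0.0757), and Cxcr6, that of Cxcl16, at 0.150 and 0.0466 FPKM (q = 0.142). With the trend on expression level removed, Cxcr3 was called lower (q = 0.0316). Cxcr1, Cxcr2 and Cxcr5 were at most 0.0529 FPKM in either group, without a test, and Cxcr7 and Darc were listed at 0. Of the other CXC ligands Cxcl12 was at 0.0184 and 0.00319 FPKM and Cxcl17 was listed at 0, both without a test.

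Regulators of the pathway were counted from lists, beside the 17.7% of all tested genes called higher and 25.2% called lower. These shares are of the deposited calls. Shares over all tested genes with the trend removed are not given here. List counts with the trend removed, here and below, thus have no share beside them. Of 14 genes of the NF-kB list, which holds subunits, inhibitors and kinases of the pathway and C/EBP factors, 1 was called higher, 7 lower and 6 neither. Cebpd was the one called higher (log2 change 0.27), the subunit gene Rel had the largest fall (log2 change −0.88), and Cebpb was not called at 326 and 355 FPKM (q = 0.0532). With the trend on expression level removed, 2 were called higher, Cebpb among them (q = 4.02e-08), and 5 lower, Nfkb2 and Nfkbia no longer. Of 10 mRNA decay regulators 2 were called higher and 4 lower. Zfp36, which encodes tristetraprolin, a protein that promotes decay of AU-rich cytokine and chemokine mRNAs, stood at 717 and 457 FPKM (log2 change −0.65, implied SE 0.059), and its relative Zfp36l1 at 1.38 and 2.41 FPKM (log2 change 0.80, implied SE 0.098). Zc3h12a, which encodes the nuclease regnase-1, was not called at 61.6 and 62.3 FPKM (q = 0.799), but was called higher with the trend removed (q = 0.0235). The list medians of −0.17 and −0.080 compare with −0.011 over all genes tested.

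Of 17 tested genes of the interferon axis, 12 were called lower, 3 higher and 2 neither, where 25.2% of all tested genes were called lower and 17.7% higher. The median log2 change was −0.19, beside −0.011 over all genes tested. With the trend on expression level removed, 7 were called lower and 4 higher, among them Ifnar2 (q = 0.0272). Ifnb1, which encodes interferon beta, had the largest fall (log2 change −2.16, implied SE 0.38), from 1.37 to 0.305 FPKM. Irf8, a transcription factor of the myeloid lineage, stood at 146 and 49.4 FPKM (log2 change −1.56, implied SE 0.048). The list also holds the inhibitors Socs1 and Socs3, both among the genes called lower, so its counts mix activators and inhibitors. Socs1 stood at 99.3 and 41.4 FPKM (log2 change −1.26, implied SE 0.049). Socs3 was not called with the trend removed (q = 0.733). Ifngr1, a chain of the interferon gamma receptor, was called higher (log2 change 0.55), and Ifnar2 as deposited was not called at 122 and 124 FPKM (q = 0.805). Ifng itself was at most 0.00703 FPKM, without a test.

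Of 9 genes of the non-canonical NF-kB axis, which drives Cxcl13 in lymphoid stroma, none was called higher and 6 were called lower, where 17.7% and 25.2% of all tested genes were. The median log2 change was −0.39, beside −0.011 over all genes tested. With the trend removed 6 were again called lower, Map3k14 in place of Nfkb2. Traf3 (log2 change −0.46) and Traf2 (log2 change −0.39) are among the genes called lower. The list was not split into activators and inhibitors, so its counts give no direction for the axis. Tnfsf14, which encodes the ligand LIGHT, had the largest fall, from 0.221 to 0.108 FPKM (log2 change −1.04, implied SE 0.42), and the receptor gene Ltbr was not called at 31.7 and 31.6 FPKM (q = 0.98). Nfkb2 and Relb stand in this list and in the NF-kB list. Of 8 tested proteases that shed or trim chemokines 1 was called higher and 4 lower. With the trend removed 3 were called higher, Ctsl among them (q = 0.0166), and 3 lower. Mmp8, a collagenase gene, was higher (log2 change 0.71), Mmp9 had the largest fall (log2 change −1.73), and Ctsl as deposited was not called at 1195 and 1222 FPKM (q = 0.788). Adam10, which releases Cxcl16 from the membrane, was not called at 21.0 and 21.3 FPKM (q = 0.803). Of 10 tested CC chemokines 2 were called higher and 6 lower, beside the 17.7% and 25.2% of all tested genes. Their median log2 change was −0.29, beside −0.011 over all genes tested, and with the trend removed Ccl3 was no longer called and 5 were lower. Ccl6 had the largest rise, from 89.2 to 129 FPKM (log2 change 0.53), and Ccl22 the largest fall, from 185 to 32.5 FPKM (log2 change −2.51), while Ccl4 was not called at 2681 and 2475 FPKM (q = 0.157).

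By nearness of the 2 group values on the log2 FPKM scale, Cxcl10 was most like the interferon-stimulated genes Isg15 (distance 0.30) and Ifitm3 (0.44). Cxcl5 was nearest to Gsta3 (0.48) and Mab21l3 (0.51), and Cxcl14 to Daam1 (0.027) and Dusp28 (0.058). Cxcl13 had no close counterpart, its nearest genes being Cd207 at a distance of 1.1 and Fstl1 at 1.8. These distances rest on 2 values per gene and say nothing of shared function or control.

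Markers of the labelled cell type were present. The macrophage genes Emr1, Csf1r, Cd68, Itgam and Fcgr1 lay between 137 and 686 FPKM in both groups, and Mertk stood at 30.1 and 29.3 FPKM. Csf1r, Cd68 and Itgam were called higher and Emr1 lower, and Fcgr1 and Mertk were not called; Emr1 was not called with the trend removed (q = 0.635). Lyz2 was listed at 0 with a status that marks excess signal, a status that no CXC chemokine had. Defining markers of B cells (4 genes summing to at most 0.0182 FPKM) were near 0, and 6 T and natural killer cell markers summed to at most 0.509 FPKM, nearly all Cd4, with Ncr1 and Nkg7 listed at 0. Neutrophil markers summed to 56.7 FPKM in LPS and 63.1 FPKM in LPS+Dex cells over 7 genes. Most of it was S100a8 and S100a9, with Mpo and Elane under 0.1 FPKM. Of the 4 tested, 1 was called higher and 3 lower, where 17.7% and 25.2% of all tested genes were. Of 6 dendritic cell markers 3 were tested, and all 3 were called lower, where 25.2% of all tested genes were. They were Itgax (26.6 and 19.9 FPKM), Ccr7 (2.63 and 0.589 FPKM) and Xcr1 (0.529 and 0.114 FPKM). The 6 genes summed to 29.9 and 20.7 FPKM, mostly Itgax. Of 6 stromal markers (sums of 2.33 and 2.68 FPKM) 2 were tested and 1 was called higher. It was Dcn, which was not called with the trend removed (q = 0.0563). Platelet markers other than Pf4 and Ppbp were at most 0.0688 FPKM. The part of these cells in the chemokine changes was not tested.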

How the data were processed

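RNA sequencing libraries from 6 samples, 3 of LPS and 3 of LPS+Dex, were assigned to groups from the sample titles. In the authors' deposited table there is 1 FPKM value per gene and group, with no depth. The submitters' processing notes name CASAVA, TopHat 1.4.1, Cufflinks 2.0.2 and build mm9, without roles; no source used here states the annotation, the scaling of libraries or the way replicates were combined. The deposited log2 change is LPS+Dex over LPS. The deposited p-value equals the 2-sided normal tail of the deposited test statistic and the deposited q-value its Benjamini-Hochberg adjustment over the 11755 tested genes, each within 0.0001. Values listed as 0 lie below the smallest p above 0, 1.11e-16. FPKM depends on the assumed transcript length and the library total.

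A gene was called at q under 0.05. The implied SE and the alternatives were computed with Python 3.11.15, numpy 2.4.6, pandas 2.3.3 and scipy 1.17.1. The test rebuilt with the trend removed was run on simulated data. Errors there were drawn from the implied SE, so the run does not check that SE. The trend was the median change of a window of 500 tested genes around each gene in mean log2 FPKM. At the ends of the range the window was one-sided, so Cxcl1, Cxcl2 and Cxcl10 share 1 trend value of −0.19. Locus starts were raised by 1, since RefSeq gene lengths equalled end minus start in 6489 genes and that plus 1 in 426. Promoters and transcripts came from RefSeq (GRCm38.p6, 7 of 10 members matched) and GENCODE M21; the coding frame was the longest open frame. The text names each member, the other CXC ligands and receptors, and genes of the other lists with the largest called changes or the highest uncalled mean. Ccl5, Irf8, Socs1, Socs3 and Adam10 were picked with their values in view. Not all genes under the rule, which also takes in neighbouring genes, are named. The members and lists were chosen with earlier results of these data known. One macrophage marker is not reported here.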

Additional observations from a re-analysis of the deposited data

How the results depend on the processing

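No paired analysis was possible because the deposited table holds no value per sample; for the same reason no replicate could be left out. The counts of 3 members called higher and 7 called lower moved by no more than 1.5 times with q under 0.01 or 0.1, Bonferroni adjustment, a change of at least 1.5-fold, a minimum of 1 FPKM, centring on genes with at least 1 FPKM (a shift of −0.025) or removal of the trend on expression level. Bonferroni adjustment left 6 lower, without Cxcl11, and a change of at least 1.5-fold left 5, without Cxcl9 and Cxcl14. A change of at least 2-fold left 1 member higher (Cxcl13) and 2 lower (Cxcl3 and Cxcl5). No member changed sign under any scale tried, and none lost its call under the centring or the trend removal. The log2 change of Cxcl5 was −1.26 with a pseudocount of 1 and −2.47 with 0.1, and that of Cxcl13 was 2.67 and 4.66, since both have a low value in a group. Depth is unknown, so counting error behind the scarce values of Cxcl5 and Cxcl13 cannot be given.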

Other observations

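The neighbours of Cxcl16 were mixed. Of 7 tested genes other than Cxcl16 with a start within 100 kb of it in the authors' deposited table, 1 was called higher, 1 lower and the rest neither. Over all tested genes 17.7% were called higher and 25.2% lower. Arrb2, which encodes beta-arrestin, an adaptor in the desensitization of chemokine receptors, stood at 42.4 and 48.4 FPKM (log2 change 0.19, implied SE 0.049). The proteasome gene Psmb6 stood at 346 and 272 FPKM (log2 change −0.34, implied SE 0.049).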
